A study of Mus musculus with 10 samples.

Results

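Transcripts of 10 matricellular genes were measured in cardiac tissue of male mice with and without the kinase HIPK2. The genes were periostin (Postn), osteopontin (Spp1), the thrombospondins Thbs1, Thbs2, Thbs3 and Thbs4, the tenascins Tnc and Tnxb, Sparc and fibronectin (Fn1). Every non-control probe whose gene name in the array files equals one of these symbols was taken, which gave 21 of the 56605 probes of the array. A probe entered the comparison if, in 1 genotype or both, the scanner software placed it well above background on 4 or more of the 5 arrays. By that filter 14 probes of 8 genes stayed, among 20607 genes in all, and Spp1 and Tnc did not pass it. Postn and Thbs1 fell in the knockout, and none of the 8 genes rose. Thbs2 stood 0.40 ± 0.17 (SE) higher on the log2 scale and missed the threshold.

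Matricellular proteins are secreted into the extracellular matrix, where they act less as building material than as adaptors between matrix fibres, cell surface receptors, proteases and growth factors. Several of them are low in the resting adult heart and are known to be made by fibroblasts and inflammatory cells after injury or pressure overload. Fibronectin and tenascin-X also have structural roles in the matrix. HIPK2 is a nuclear serine/threonine kinase that takes part in p53, Wnt and TGF-beta signalling.

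The knockout group held 5 samples of HIPK2-/- mice on the C57BL/6 background. The line was made by CRISPR injection of embryos and carries a frameshift deletion of 56 bases in the second exon of Hipk2, so the gene is disrupted in all cells and not in 1 cell type. The wild-type group held 5 samples of C57BL/6 mice. The mice of both groups were male, had no treatment named in the labels and were kept on free chow and water. Age, the part of the heart taken and the number of founders are not given in the sources used here. The labels number the samples without saying whether they are separate mice. The p-values therefore rest on the spread among numbered samples, which may be technical in part.

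Each sample was hybridised alone to 1 Agilent 1-colour array. All levels below are log2 of the processed spot signal minus the log2 of the 75th percentile of the same array, so a level of 0 is that percentile. Differences are the knockout mean minus the wild-type mean, each given with its standard error from limma. Adjusted p-values are Benjamini-Hochberg values over all 20607 genes. Levels of different genes come from different probes and are not set against each other.

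The probes are 60-base oligonucleotides, and their letters decide which transcripts a level counts. The brightest probes of Postn and Thbs1 lie at chr3:54194483-54194542 and chr2:117952585-117952644 (mouse build mm9, plus strand of the genome). Among the member probes, 5 have a position that spans more genome than their own length, so they cross an intron and match spliced RNA. Those of Thbs2, Sparc, Fn1 and Tnc are shown for that reason, leaving out a second one of Fn1 that did not pass the filter. They are given 5′ to 3′ with no letters in capitals, and all 4 genes lie on the minus strand. Their mm9 positions are chr17:14804526-14805789 for Thbs2, chr11:55209449-55212106 for Sparc, chr1:71637422-71639659 for Fn1 and chr4:63674248-63675011 for Tnc.
Thbs2: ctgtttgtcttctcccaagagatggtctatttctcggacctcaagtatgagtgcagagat
Sparc: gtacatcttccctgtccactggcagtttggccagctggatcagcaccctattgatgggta
Fn1: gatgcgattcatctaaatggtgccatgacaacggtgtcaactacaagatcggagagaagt
Tnc: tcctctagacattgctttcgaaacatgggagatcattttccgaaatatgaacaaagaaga
The longest run of bases that probes of different members share is 10, also among the 4 thrombospondins.

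Depth in an array is set by signal over background. The 75th percentile of the spot signal lay between 285.8 and 460 intensity units in the knockout arrays and between 462 and 542 in the wild type, with no overlap (exact permutation p = 0.00794, 0.0444 adjusted over the 14 array measures tested, both two-sided). Spots well above background made up 51.9% ± 5.36 (SD, n = 5) of a knockout array and 58.6% ± 1.80 of a wild-type array. Wild-type replicates 1 and 2 were on one slide and the other 8 arrays on a second. Hipk2 itself was at 1.58 ± 0.25 (SD, n = 5) in the knockout and 1.54 ± 0.31 in the wild type, and its probe holds none of the deleted bases, so it does not check the labels. The 8 cardiomyocyte markers were high in every array, with a mean level of 8.37 to 8.83 in the knockout and 7.87 to 8.38 in the wild type.

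Over all 20607 genes, 1017 (4.94%) passed an adjusted p of 0.05, of which 612 (2.97% of all) were lower in the knockout. Of the 8 measured members, 2 fell and 0 rose. The difference was below 0 in 7 of the 8 members, as in 45.9% of all genes. The median member difference was -0.38, beside 0.03 over all genes. In 0 of the 8 members did the genotypes not overlap, beside 8.98% of all genes, of which 4.44% had every knockout value below every wild-type value. At an unadjusted p under 0.05 stood 3 members that were lower and 1 that was higher, beside 27.2% of all genes in either direction and 12.3% lower. Levels set for the whole tissue do not separate fewer cells of a type from less RNA per cell: in bulk samples these cannot be told apart.

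Postn encodes periostin, a secreted protein that binds collagen and integrins and marks activated cardiac fibroblasts. Its brightest probe read -0.21, 0.08, 0.46, 0.02 and 0.85 in knockout replicates 1 to 5, and 0.77, 1.26, 1.10, 1.47 and 1.61 in wild-type replicates 1 to 5. Knockout replicate 5 was the highest of its group and lay above wild-type replicate 1, so the groups overlapped by that pair. The mean was 0.24 ± 0.42 (SD, n = 5) in the knockout and 1.24 ± 0.33 in the wild type. The difference was -1.00 ± 0.21 (95% confidence interval -1.47 to -0.53), or 2.00-fold, with an adjusted p of 0.0305 by limma. By size of difference Postn ranked 337 among the 20607 genes.

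The other Postn probes gave smaller differences of the same sign. In the fit over all 30693 kept probes, where 4.44% passed and 2.76% were lower with a pass, the next probe differed by -0.94 ± 0.22 (adjusted p = 0.0435 by limma) and the third by -0.73 ± 0.27 (adjusted p = 0.127). The last Postn probe was not well above background on any array. With the mean of the kept probes in place of the brightest, the Postn difference was -0.89 and its adjusted p 0.0528.

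RefSeq lists promoter windows (GRCm38.p6, 250 bases before to 50 after a start) for 8 of the 10 members, 11 windows in all. The windows were searched on both strands for 5 motifs, which were the TATA box TATAAA, the GC box GGGCGG, the AP-1 element TGACTCA, the E-box CACGTG and the CArG box. Postn has 2 windows, shown because it is the called member with an entry. The first, at chr3:54359017-54359316 on the plus strand, holds none of the 5. The second, at chr3:54360857-54361156 on the plus strand, holds a TATA box that begins at base -26 from the start, in capitals here.
Postn, second window: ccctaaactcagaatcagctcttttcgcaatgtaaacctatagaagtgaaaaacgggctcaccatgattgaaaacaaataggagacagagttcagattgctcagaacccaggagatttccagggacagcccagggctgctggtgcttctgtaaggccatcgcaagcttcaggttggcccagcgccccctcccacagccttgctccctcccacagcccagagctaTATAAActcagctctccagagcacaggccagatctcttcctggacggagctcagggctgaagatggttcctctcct
A TATA box occurs anywhere in 13.62% of the 32851 windows of the table, a GC box in 35.66%, an AP-1 element in 5.202%, an E-box in 7.15% and a CArG box in 1.629%. Among the other members, the Thbs2, Spp1 and Tnc windows also hold a TATA box, at -126, at -211 and at -126. The 2 Tnc windows overlap, and the box of the second, at -205 from its own start, is the same one. GC boxes lie in the Thbs3, Thbs4 and Tnc windows and an AP-1 element at -55 of Tnxb. The Sparc window holds none of the 5 motifs. A match describes the letters of the window only.

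**Figure D1:**
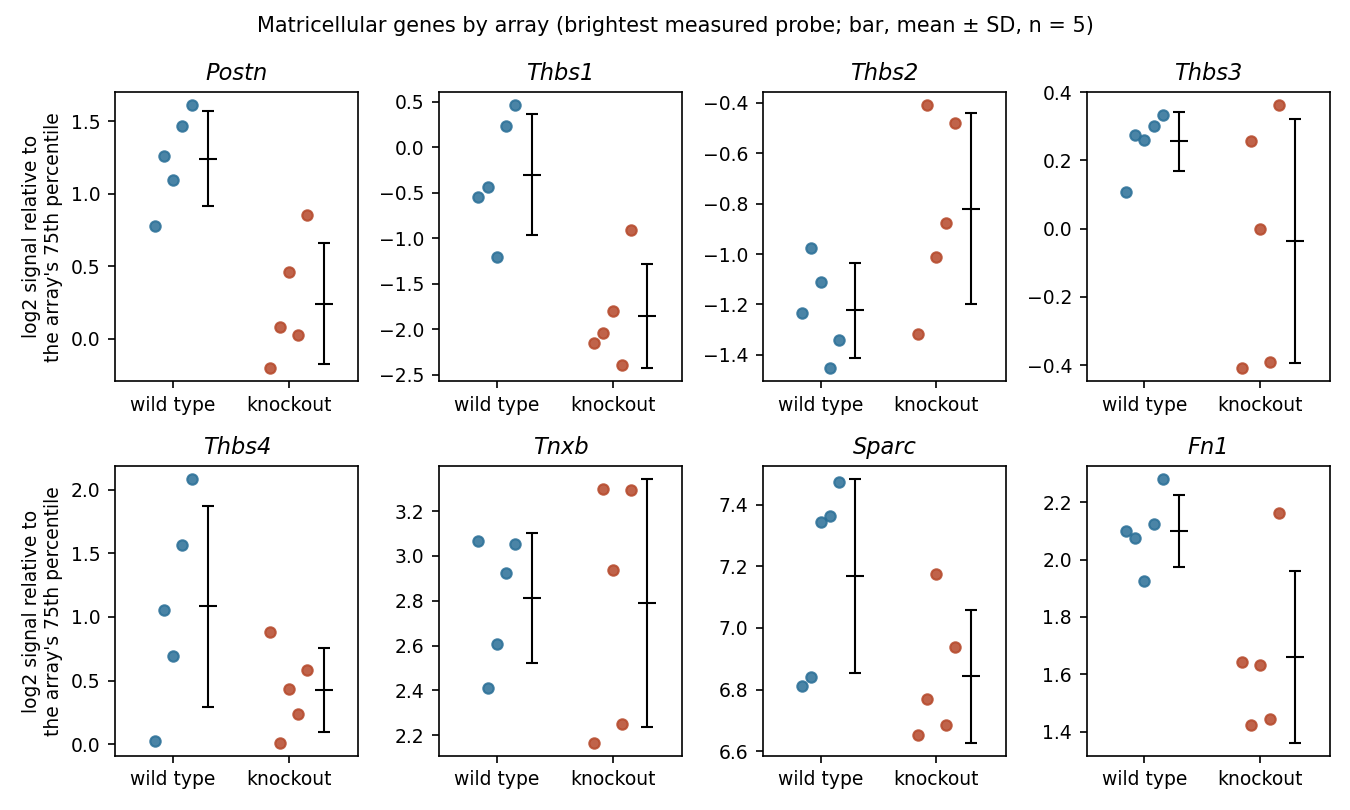
Level of the brightest kept probe of each of the 8 measured matricellular genes on each array (y axis, log2 signal relative to the 75th percentile of the array), with points for the 5 knockout and 5 wild-type samples and bars for the mean and SD. Postn and Thbs1 have the knockout means furthest below the wild type, at 0.24 against 1.24 and at -1.86 against -0.30.

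Thbs1 encodes thrombospondin-1, a trimer that binds CD36 and CD47, restrains vessel growth and can activate latent TGF-beta. It had the largest difference of the 8 members. Its brightest probe read -2.15, -2.04, -1.80, -2.39 and -0.91 in knockout replicates 1 to 5, and -0.55, -0.44, -1.21, 0.24 and 0.46 in wild-type replicates 1 to 5. As with Postn, knockout replicate 5 was the highest of its group, and here it passed wild-type replicate 3. The means were -1.86 ± 0.57 and -0.30 ± 0.67 (SD, n = 5 each). The difference was -1.56 ± 0.34 (95% confidence interval -2.32 to -0.80), or 2.94-fold, with an adjusted p of 0.0334 by limma. Thbs1 ranked 62 of 20607 by size. A second, dimmer probe, well above background on 2 knockout and 5 wild-type arrays, differed by -1.43 ± 0.48 (adjusted p = 0.103 by limma over probes).

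Both calls lay close to the threshold. Postn stayed past it in 4 of the 10 fits that left out 1 array and missed it without knockout replicate 1, 2 or 4 or wild-type replicate 2, 4 or 5, with an adjusted p of up to 0.0735 by limma. Thbs1 stayed past it in 3 of the 10 and missed it without knockout replicate 1, 2, 3 or 4 or wild-type replicate 2, 4 or 5, with an adjusted p of up to 0.0776. On the slide that held both genotypes, the Postn difference was -1.15 (adjusted p = 0.0474) and that of Thbs1 -1.69 (adjusted p = 0.0781). With the replicate number as a block, Thbs1 had an adjusted p of 0.0541.

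Marker lists of the cells that the tissue could hold were averaged on each array, and p-values are two-sided exact permutation values with adjustment over the 14 array measures. Of 5 atrial markers, 4 were measured, and their mean level ran from -0.43 to 2.80 in the knockout and from -0.93 to 5.07 in the wild type (exact permutation p = 0.135). Used as a covariate, here and below, the atrial level was the mean of Myl7, Myl4 and Sln alone, without Nppa. With this covariate the differences were -0.71 for Postn (adjusted p = 0.112 by limma) and -1.28 for Thbs1 (adjusted p = 0.134). The 4 of 6 fat markers measured averaged -5.04 to -2.96 in the knockout and -4.17 to 0.29 in the wild type (exact permutation p = 0.0397, 0.0694 adjusted). Car3 and Retn were well above background on only 2 knockout arrays each and Cfd on 3, so the knockout fat level is in part near background. With the atrial and fat levels as covariates the differences were -0.78 for Postn and -1.49 for Thbs1 (adjusted p = 0.205 for each by limma). The measured 7 of 8 activated-fibroblast markers averaged -0.70 to 0.16 in the knockout and -0.62 to 0.72 in the wild type (exact permutation p = 0.103). All 10 fibroblast markers averaged 2.15 to 2.96 in the knockout and 2.72 to 2.97 in the wild type (exact permutation p = 0.0635). The 9 macrophage markers averaged 1.43 to 1.97 in the knockout and 1.94 to 2.21 in the wild type (exact permutation p = 0.0159, 0.0444 adjusted). The 8 endothelial markers all had differences below 0, and their mean did not overlap between genotypes, at 2.34 to 2.53 in the knockout and 2.72 to 2.79 in the wild type (exact permutation p = 0.00794, 0.0444 adjusted). The 8 cardiomyocyte markers averaged 0.47 higher in the knockout (exact permutation p = 0.0159, 0.0444 adjusted). Of 5 epicardial or mesothelial markers only Wt1 was measured. It read -0.86 to -0.46 in the knockout and -0.51 to -0.15 in the wild type (exact permutation p = 0.0159, 0.0444 adjusted). The measured 5 of 8 tendon and valve-like markers averaged -1.73 to -0.34 in the knockout and -1.69 to -0.15 in the wild type (exact permutation p = 0.603). The part of the fibroblast, macrophage, endothelial, cardiomyocyte, Wt1 and tendon and valve-like levels in the Postn and Thbs1 differences was not tested.

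None of the other thrombospondins passed the threshold. Thbs2 encodes thrombospondin-2, a close relative of thrombospondin-1 that shapes collagen fibrils and clears metalloproteases. Its single probe read -1.32, -0.41, -1.01, -0.88 and -0.48 in knockout replicates 1 to 5, and -1.23, -0.98, -1.11, -1.45 and -1.34 in wild-type replicates 1 to 5. Knockout replicates 2, 4 and 5 lay above the whole wild-type group, and replicates 1 and 3 within its range. The difference was 0.40 ± 0.17 (95% confidence interval 0.02 to 0.79), with an adjusted p of 0.165 by limma. Thbs2 passed the threshold in 1 alternative, the normexp background correction, at 0.41 (adjusted p = 0.0435).

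Thbs3 and Thbs4 belong to the pentameric thrombospondins, and Thbs4 is known to be made in the stressed heart. Thbs3 read -0.41, 0.26, 0.00, -0.39 and 0.36 in the knockout and 0.11, 0.28, 0.26, 0.30 and 0.33 in the wild type, in replicate order. The knockout samples spread more widely, at an SD of 0.36 against 0.09, and the groups overlapped. The difference was -0.29 ± 0.15 (95% confidence interval -0.63 to 0.05, adjusted p = 0.246 by limma), and -0.26 ± 0.16 at a second probe. Thbs4 read 0.88, 0.01, 0.43, 0.23 and 0.59 in the knockout and 0.02, 1.05, 0.69, 1.57 and 2.08 in the wild type. Wild-type replicate 1 sat low in its group, within the knockout range. The difference of Thbs4 was -0.66 ± 0.34 (95% confidence interval -1.40 to 0.08, adjusted p = 0.231 by limma). It was -1.02 on the slide with both genotypes and -0.21 with the atrial level as a covariate, neither past the threshold.

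**Figure D2:**
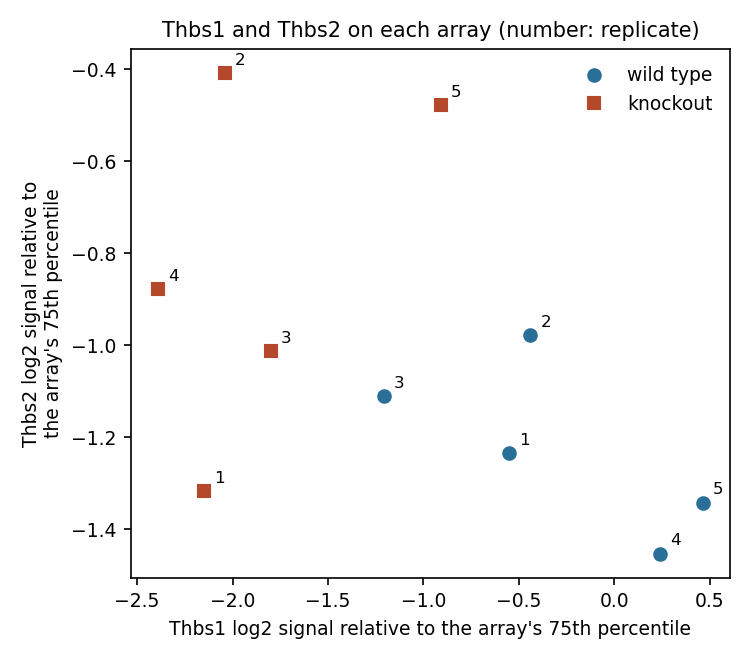
Levels of Thbs1 (x axis) and Thbs2 (y axis) on each array, both as log2 signal relative to the 75th percentile of the array, with 1 point per sample coloured by genotype. Within each array Thbs2 minus Thbs1 was 1.04 ± 0.51 (SD, n = 5) in the knockout and -0.92 ± 0.81 in the wild type. The sign within a genotype does not tell which gene has more transcript, since the probes differ.

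The probes of 2 genes on the same array can be subtracted, which removes the scaling of that array. This comparison was chosen after the values had been seen, so all 28 pairs of the 8 measured members were computed. The Thbs2 minus Thbs1 difference was 0.83, 1.63, 0.79, 1.51 and 0.43 in knockout replicates 1 to 5, and -0.68, -0.54, 0.10, -1.69 and -1.80 in wild-type replicates 1 to 5. The groups did not overlap. The genotypes differed by 1.96 on the log2 scale (exact permutation p = 0.00794, two-sided, and 0.0370 adjusted over the 28 pairs). That p is the smallest that 252 arrangements can give. With normexp correction the gap was 1.55, and on the slide with both genotypes it was 2.17.

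Among the 28 pairs, 6 did not overlap between genotypes, and 3 of the 6 held Thbs2 beside Postn, Thbs3 or Fn1. These pairs share genes, so the 6 are not separate results. The share of non-overlapping pairs among other genes was not computed, so the count is not read as particular to the members. Thbs2 minus Postn was 1.40 higher in the knockout. Fn1 minus Thbs2 was -0.84 and Thbs3 minus Thbs2 -0.70, so Thbs2 gained relative to both. The last pairs were Thbs3 minus Postn, at 0.71, and Tnxb minus Thbs1, at 1.54. Each of the 6 had the same two-sided exact permutation p of 0.00794. A pair difference shows unequal change between 2 genes and not which of them moved.

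Fn1 encodes fibronectin, a fibre-forming ligand of integrins on which collagen assembly depends. Its brightest probe (chr1:71632116-71632175, mm9) read 1.64, 1.42, 1.63, 1.45 and 2.16 in knockout replicates 1 to 5, and 2.10, 2.07, 1.93, 2.12 and 2.28 in wild-type replicates 1 to 5. Knockout replicates 1 to 4 lay below the whole wild-type group, and replicate 5 lay inside it. The difference was -0.44 ± 0.14 (95% confidence interval -0.75 to -0.13), with an adjusted p of 0.0858 by limma. Without knockout replicate 5 it was -0.57, with an adjusted p of 0.0205. That was the only 1 of the 10 fits without 1 array to pass, and the adjusted p reached 0.159 in the rest. The intron-crossing Fn1 probe shown above differed by -0.39 ± 0.17 (adjusted p = 0.178). A further 2 Fn1 probes did not pass the filter.

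Sparc encodes osteonectin, a collagen-binding protein that is abundant in the adult heart. Its brightest probe (chr11:55208939-55208998, mm9) read 6.65, 6.77, 7.17, 6.68 and 6.94 in the knockout and 6.81, 6.84, 7.34, 7.36 and 7.47 in the wild type, in replicate order. The upper knockout samples lay among the lower wild-type samples. The difference was -0.32 ± 0.16 (95% confidence interval -0.68 to 0.03, adjusted p = 0.215 by limma). Its size depended on the processing, at -0.41 with normexp correction (adjusted p = 0.0567 by limma). Quantile normalization gave -0.51 (adjusted p = 0.0803) and the deposited table -0.53 (adjusted p = 0.0618). The intron-crossing probe gave -0.37 ± 0.16 (adjusted p = 0.173). Wild-type replicates 1 and 2, both on the slide without knockout arrays, were the lowest of their group, and with slide as a block the difference was -0.55 (adjusted p = 0.0432). The 8 arrays of the other slide alone gave the same -0.55 with an adjusted p of 0.0663, since slide 1 adds no knockout array.

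The tenascins and osteopontin gave no call. Tnxb, whose product tenascin-X binds collagen fibrils, read 2.17 to 3.30 in the knockout (median 2.94) and 2.41 to 3.07 in the wild type (median 2.92). The difference was -0.02 ± 0.25, and its 95% confidence interval of -0.57 to 0.52 leaves room for a change of that size in either direction (adjusted p = 0.964 by limma). Tnc encodes tenascin-C, an injury-induced protein. One Tnc probe was well above background on 1 knockout and 3 wild-type arrays, and the probe printed above on none. With the filter off, the Tnc difference was -0.77 ± 0.59 (adjusted p = 0.375).

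Spp1 encodes osteopontin, an integrin and CD44 ligand made largely by macrophages in the injured heart. On all 5 knockout arrays it was not well above background. Wild-type replicates 2, 4 and 5 were above it, at -2.93, -3.19 and -2.17, and replicates 1 and 3 were at -5.35 and -5.57. Each knockout array was given its lowest signal called well above background, with a mean of -3.97. Against that limit the wild-type mean of -3.84 was 1.09-fold higher. That mean includes replicates 1 and 3, which were not well above background, so a lower level in the knockout is not assured. Without wild-type replicate 2, 4 or 5 or without knockout replicate 1 or 5, the wild-type mean lay below the limit. It was -4.26 against -3.97 without wild-type replicate 5. The fit with the filter off gave -1.24 ± 0.66 and an adjusted p of 0.203 by limma.

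**Figure D3:**
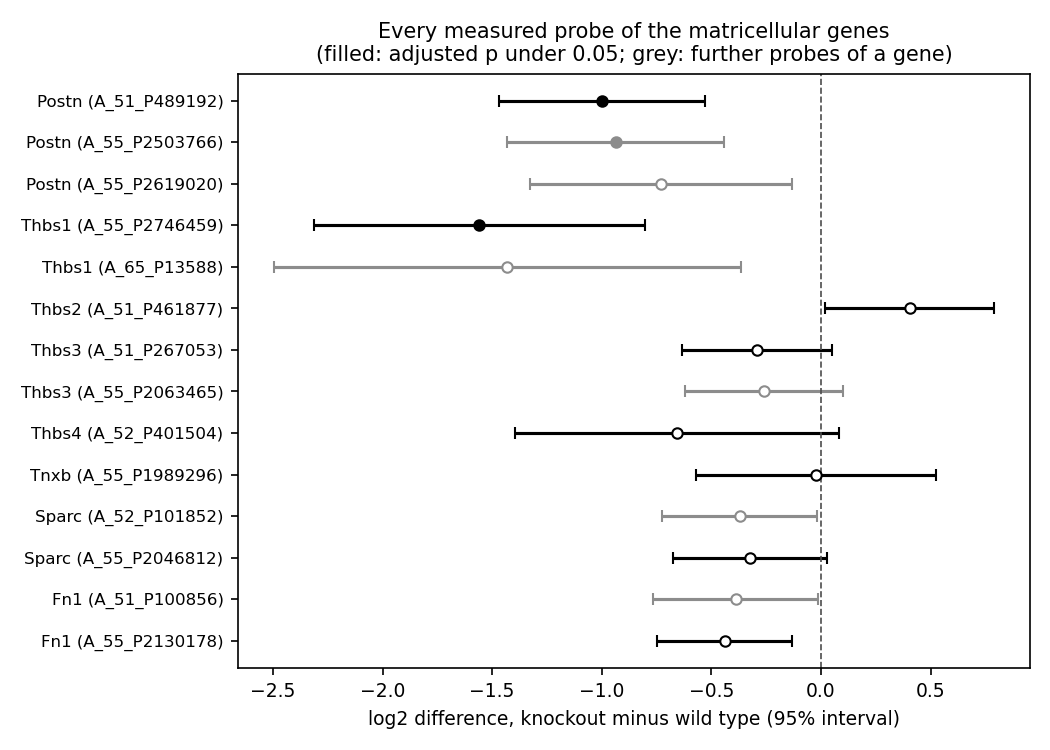
Knockout minus wild-type difference on the log2 scale (x axis) with its 95% confidence interval for each of the 14 kept probes of the 8 measured members. Of the 14 probes, 13 lie below 0 and the Thbs2 probe lies above it. The probes are not separate results, since 5 genes have more than 1 kept probe. The dimmer Thbs1 probe passed the filter only through the wild type, with 2 knockout arrays well above background. The share of all kept probes below 0 was not computed.

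**Figure D4:**
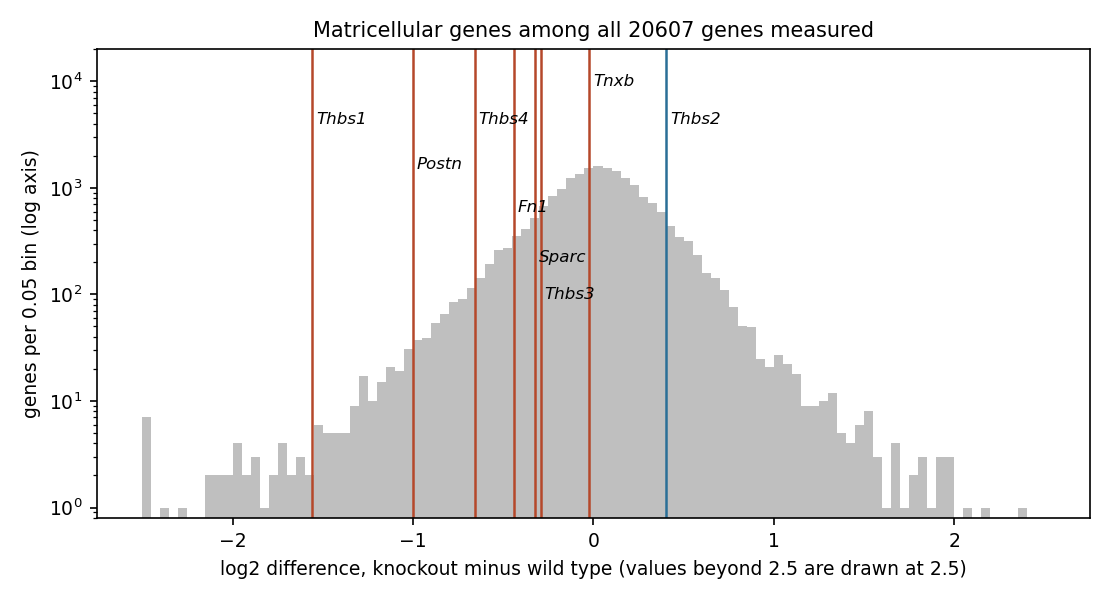
Histogram of the knockout minus wild-type differences (x axis, log2 scale) of all 20607 genes, with a line for each measured member, red below 0 and blue above. Values beyond 2.5 are drawn at 2.5, and Thbs1 at -1.56 and Postn at -1.00 stand furthest from the median of 0.03.

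Genes that work with these proteins were read from lists. The counts below stand beside 4.94% of all genes called, 2.97% lower and 1.97% higher, and 45.9% with a difference below 0. Of 30 other matricellular genes, 26 were measured, 2 fell, 1 rose and 23 did not pass, with a median of -0.15. With normexp correction that median was 0.06. Spock3 and Fbln7, both below 0, passed the filter only through the wild type, with 2 knockout arrays each well above background. Fstl1, a secreted relative of Sparc that binds TGF-beta family ligands, had a difference of -0.80 ± 0.13 and passed the test (adjusted p = 0.0127 by limma). With all its kept probes averaged, the Fstl1 difference was -0.49 (adjusted p = 0.0325). At the brightest probe, the knockout values of 2.41 to 2.97 all lay below the wild-type values of 3.18 to 3.71. Spon2, a matrix protein of the spondin family, differed by -1.64 ± 0.31 (adjusted p = 0.0209). The Spon2 difference was -1.00 with normexp correction, and its call was lost without wild-type replicate 4 (adjusted p = 0.0522). Lgals1, the glycan-binding galectin-1, rose by 0.36 ± 0.09 (adjusted p = 0.0432) and kept its call in 2 of the 10 fits without 1 array, with an adjusted p of 0.0510 under normexp. Ccn2, known as connective tissue growth factor, differed by 0.29 ± 0.19 (adjusted p = 0.334).

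Of 26 receptors and adhesion partners, 25 were measured, 1 fell and 0 rose. The one was Itgb3, the beta-3 integrin subunit that binds periostin, osteopontin and thrombospondin, at -0.78 ± 0.13 (adjusted p = 0.0152 by limma). Itgb3 is also a platelet gene, and the mean of the 4 measured platelet markers was -2.51 to -1.80 in the knockout and -1.88 to -1.46 in the wild type (exact permutation p = 0.0238, 0.0556 adjusted). Of these markers, Gp1bb and Gp9 were well above background on only 2 knockout arrays each. The part of the platelet markers in the Itgb3 difference was not tested. The thrombospondin receptors Cd36 and Cd47 differed by 0.06 ± 0.09 and 0.10 ± 0.09 (adjusted p = 0.723 and 0.490).

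In the TGF-beta list 18 of 18 genes were measured, 1 fell and 0 rose, with a median of -0.13. That gene was Skil, a TGF-beta target that restrains Smad signalling, at -0.57 ± 0.11 (adjusted p = 0.0195 by limma). It kept its call in 8 of the 10 fits without 1 array. The ligands Tgfb1, Tgfb2 and Tgfb3 gave -0.14 ± 0.14, -0.21 ± 0.15 and 0.27 ± 0.13, none past the threshold.

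Collagens and their partners had a median of -0.50 over 18 of 18 measured genes, 15 of them below 0. Among those 15, Col5a2, Col12a1 and Fmod passed the filter only through the wild type. They were well above background on 2, 1 and 3 knockout arrays, so the count and the median rest in part on levels near background. The median was -0.21 with normexp correction and -0.24 with the atrial level as a covariate. Of the 18, 2 fell and 1 rose. Lox, which cross-links collagen and elastin, differed by -0.88 ± 0.15 (adjusted p = 0.0147 by limma), and Col5a1, a fibril-nucleating collagen chain, by -0.79 ± 0.19 (adjusted p = 0.0404, called in 2 of 10 fits without 1 array). Plod2, a lysyl hydroxylase of collagen telopeptides, rose by 0.55 ± 0.09 (adjusted p = 0.0159). With all kept probes of Plod2 averaged, the difference was 0.23 and the call was lost (adjusted p = 0.323). At the brightest Plod2 probe, knockout values of -0.11 to 0.14 all lay above the wild-type values of -0.76 to -0.38.

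Of 14 proteases and inhibitors that act on these proteins, 12 were measured, 2 fell and 0 rose, with a median of -0.41. With normexp correction that median was -0.27. Mmp9 and Plg, at -0.92 and 0.40, passed the filter only through the wild type. They were well above background on 0 and 2 knockout arrays. Timp1, an inhibitor of metalloproteases, read 0.29, 0.60, 0.55, -0.34 and 0.50 in the knockout and 1.45, 1.98, 1.30, 2.67 and 2.38 in the wild type. The groups did not overlap, and the difference was -1.64 ± 0.28 (adjusted p = 0.0152 by limma). Mmp14, a membrane-bound metalloprotease, differed by -0.85 ± 0.18 (adjusted p = 0.0322), and by -0.22 (adjusted p = 0.0945) with normexp correction. It was called in 3 of the 10 fits without 1 array. On the slide with both genotypes, Fstl1, Lox and Timp1 kept their calls (adjusted p = 0.0259, 0.0492 and 0.0328), while the other 7 named genes of these lists had adjusted p-values of 0.0509 to 0.148. Normexp brought the Lox difference to -0.57, still past the threshold. With the atrial level as a covariate, none of these 10 named calls of the related lists passed (adjusted p = 0.0655 to 0.151). Several differences kept their size in that fit, as -0.81 for Itgb3, -0.61 for Skil, 0.36 for Lgals1, -1.57 for Spon2 and -0.82 for Mmp14, while those of Fstl1 and Col5a1 were -0.66 and -0.63.

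After each genotype mean was removed, the members varied together to different degrees over the 10 arrays. These correlations describe 10 arrays that share scaling and tissue composition, and carry no test. The closest member pairs were Thbs1 with Fn1 at Pearson r = 0.84, Thbs3 with Tnxb at 0.83 and Postn with Thbs1 at 0.82. Thbs2 with Thbs1 was at 0.04 and Thbs2 with Thbs4 at -0.41. Postn followed the activated-fibroblast mean at r = 0.93, and Thbs3 the fibroblast mean at 0.93 and the macrophage mean at 0.94. Thbs1 was closest to the tendon and valve-like mean, at 0.83.

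Among 14200 other genes, those most like each member across arrays were taken by the same measure. For Postn they were Nbl1, a BMP antagonist, at r = 0.97 and Serpinf1, a secreted serpin, at 0.96. For Thbs1 they were Vim, the intermediate filament of mesenchymal cells, at 0.95 and Calhm5 at 0.93. Thbs2 was nearest to Tbc1d2b at 0.94 and Mcm2 at 0.93, and Thbs3 to Col6a1 and G6pdx, both at 0.98. Thbs4 was nearest to Rhoc at 0.97 and Ifi27 at 0.95. Tnxb was nearest to Spr at 0.98 and Col20a1 at 0.95, Sparc to Plekhg2 and Fes at 0.98, and Fn1 to Slc7a6os at 0.94 and Zfp959 at 0.93. Of these genes, Nbl1 and Rhoc were themselves lower in the knockout, by -0.54 (adjusted p = 0.0257 by limma) and -0.50 (adjusted p = 0.0342).

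**Figure D5:**
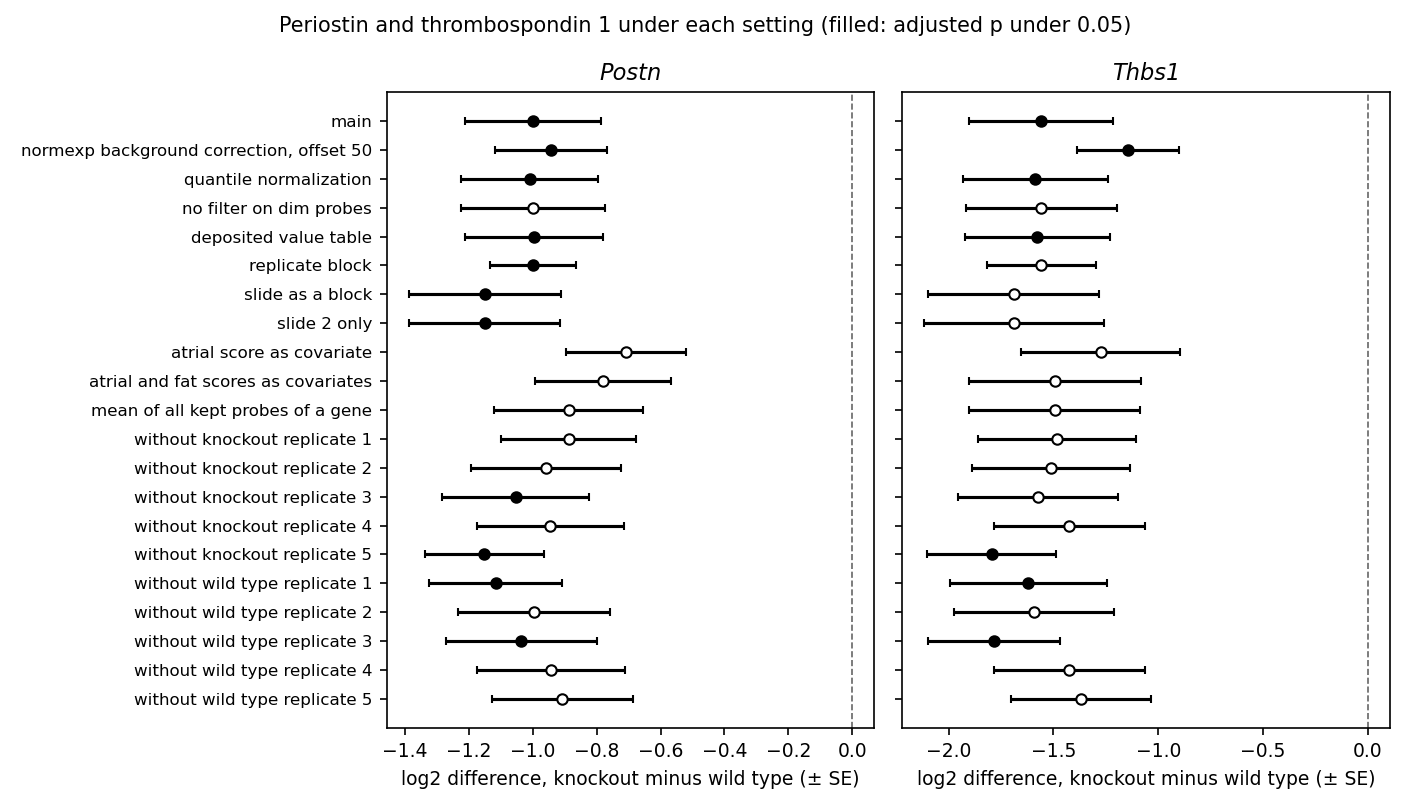
Knockout minus wild-type difference of Postn and Thbs1 (x axis, log2 scale, bars for the SE) under each processing setting and with each array left out (y axis), with filled points where the adjusted p passed 0.05. Postn ran from -1.15 to -0.71 and Thbs1 from -1.69 to -1.14 over the 10 processing alternatives. With 1 array left out, they ran from -1.15 to -0.89 and from -1.80 to -1.37.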

How the data were processed

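Total RNA of 10 cardiac samples was labelled with cyanine-3 and hybridised singly, per the labels' protocols. The authors deposited 1 scanner file per array, with linear intensity for each spot. The software was Agilent Feature Extraction 10.7.1.1, per the submitters' processing notes. It subtracted background within each array and did not scale arrays to one another, per the file headers. The authors also deposited a value table on a log2 scale, whose filtering and background treatment are not given in the sources used here. Its columns correlated at r of 0.918 to 0.996 with their own arrays and at most 0.510 with others after probe centring, and it served as an alternative.

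Log2 of the processed signal minus the log2 75th percentile of each array was averaged over the spots of a probe. Control and outlier spots were left out, and no other spot was saturated. A RefSeq table (GRCm38.p6) named 32994 probes, and 23611 kept the array's name. The kept probe with the brightest mean stood for its gene. Genotypes were compared over all 10 arrays in limma 3.58.1 (R 4.3.3), lmFit and eBayes without covariates, with a threshold of 0.05. The script was tested on simulated data. For a gene not well above background on any array of 1 genotype, the fold is taken against the lowest signal above background on each of those arrays.

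The text names all members, the called genes of each related list, a few textbook receptors and ligands of those lists (chosen after their values were seen), and the 2 genes most like each member across arrays. Members and lists were chosen with earlier results of these data known. Alternatives were another background correction, quantile normalization, the deposited table, no filter, all probes of a gene averaged, replicate or slide as a block, 1 slide only, atrial and fat levels as covariates, and each array left out.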

Additional observations from a re-analysis of the deposited data

Results flagged for a closer look

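Outlying samples were looked for in the 70 groups formed by probe, marker or array measure and genotype, by the gap to the nearest sample over the range of the group. Chance picks out about 5% of such groups, and 2 of the 70 were picked out. Both were dim probes that the filter had left out. A Tnc probe read -2.39 in wild-type replicate 3 while the next highest wild-type sample was at -4.67. A Sparc probe read -2.92 in wild-type replicate 1 while the next was at -4.98. The brightest Sparc probe did not show that sample as high.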

How the results depend on the processing

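Over the 8 measured members, 127 of 160 recomputed values kept their direction and their side of the threshold, 24 lost the call, 4 gained one and 5 changed sign. Most of the 127 are of members without a call, since only Postn and Thbs1 had a call to lose. Postn kept its call in 6 of 10 processing alternatives and 4 of 10 fits without 1 array. Thbs1 kept its call in 3 of 10 and 3 of 10. All 5 were Tnxb with 1 array left out, where the difference rose above 0 from -0.02. The 10 such Tnxb fits ran from -0.15 to 0.13. The 2 calls among members held with quantile normalization and the deposited table, and with slide as a block the count was also 2, for Postn and Sparc. The count was 4 with normexp correction (Postn, Thbs1 and Fn1 lower, Thbs2 higher) and 1 on the slide with both genotypes. It was 0 with no filter (37325 genes tested), 0 with the atrial level, 0 with the atrial and fat levels, 0 with the mean of all kept probes, and 0 to 3 with each array left out. Over all genes the 1017 calls became 3111 with normexp (2233 higher, 878 lower, 810 shared), 173 with no filter, 458 on 1 slide, 57 with the atrial level, 8 with atrial and fat levels, and 282 to 940 with each array left out. The cause of these shifts was not tested, beyond the fewer arrays or more genes tested that 3 of the settings have by construction. The 6 non-overlapping pair differences kept their direction and an exact permutation p under 0.05 with normexp, quantile normalization and the deposited table, alternatives chosen after the data were seen. Leaving arrays out cannot make such groups overlap and so gives no check on these pairs.

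Samples with the same replicate number did not deviate together, with correlations of 0.02, 0.04, 0.05, -0.03 and -0.11 for numbers 1 to 5, and 0 of 10 samples correlated best with its own number. With the replicate block, 164 genes and 1 member, Postn, were called.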
